A study of Mus musculus with 4 samples.

Results

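The liver and the ileum of mice of the control group were compared, to describe which genes mark each organ on a high-fat diet and which lipid, transport and immune genes both express. The comparison uses 2 of the 4 arrays of the series, the liver and the ileum of mice fed cellulose, and covers 22180 genes measured in both. Male C57BL/6J mice, 4 weeks old at purchase, were fed for 12 weeks on a high-fat diet with 50 g/kg cellulose (control group) or with paramylon, a beta-glucan of Euglena, in its place (PM group). Mice were fasted for 8 hours before samples were taken. RNA of 10 mice per group was mixed before hybridization, so each organ is 1 array, variation among mice is not visible, and no test was made or p-value calculated. A value is the log2 expression level made by the authors, averaged over the probes that name exactly 1 gene.

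The deposited values do not put the organs on 1 scale. Their medians over all genes were 3.18 in the liver and 4.58 in the ileum, while both diets gave nearly the same median within an organ. Each gene was therefore given a percentile, its place among the 22180 genes of its own array, and the percentile in the liver was compared with that in the ileum. Background was set at the 95th percentile of the 1390 olfactory and vomeronasal receptor genes, which gave log2 2.68 in the liver (percentile 39.2) and 3.70 in the ileum (percentile 37.5). Above it were 12181 genes in both organs, 1299 in the liver alone, 1690 in the ileum alone and 7010 in neither. Below background many genes share 1 value and their order has no meaning. Percentiles also crowd at the top, so genes of nearly equal percentile can still lie far apart in log2 level.

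The liver makes most plasma proteins, bile acids and circulating lipoproteins, and clears drugs and nitrogen. The ileum, the last stretch of the small intestine, takes up bile acids, sugars, peptides and fat through the brush border of its enterocytes. It also holds secretory cells (goblet, Paneth and enteroendocrine cells), a muscle coat and a large population of lymphocytes. The organs share several epithelial transcription factors, among them HNF1 and HNF4, and both assemble lipoproteins around apolipoprotein B. Bile acids link them, since those secreted by the liver return from the ileum through the portal vein.

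The 4 genes chosen to check the labels did not all separate the organs. Alb, which encodes serum albumin, was at log2 12.96 (percentile 99.996) in the liver and 3.05 (percentile 25.7) in the ileum, where it did not pass background. Lct, the brush border lactase, was at log2 7.04 (percentile 82.8) in the ileum and 2.05 (percentile 17.8) in the liver, below background in the liver. Apob, the structural protein of very low density lipoprotein and chylomicrons, was at log2 12.37 (percentile 99.9) in the liver and 11.82 (percentile 99.8) in the ileum. Fabp2, the intestinal fatty acid-binding protein, was at log2 12.28 (percentile 99.9) in the ileum and 9.73 (percentile 98.4) in the liver. Alb and Lct thus stood apart as the labels say, and Apob and Fabp2 were among the highest genes of both arrays. The liver level of Fabp2 did not go with the whole enterocyte set: 18 of the 30 enterocyte markers measured were below background there, Sis (sucrase-isomaltase) and Cdh17 among them. In bulk tissue, fewer cells of a type and less RNA per cell cannot be told apart.

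A gene was called higher in an organ when its percentile was at least 25 points higher there and it passed background there. By this rule 866 genes (3.9% of all genes) were higher in the liver and 1212 (5.46%) in the ileum. Of the liver genes 470 were below background in the ileum, and of the ileum genes 753 were below background in the liver. A further 4049 genes (18.3%) were at percentile 75 or more in both. Such genes can hardly lie 25 points apart, so the absence of calls among them follows from the rule. Across the 22180 genes the percentiles had a Spearman correlation of 0.82, given as a description, since genes are not replicates and both arrays share the probe design. The median difference over all genes was 0.478 points, and the median size of a difference was 6.58 points.

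**Figure D1:**
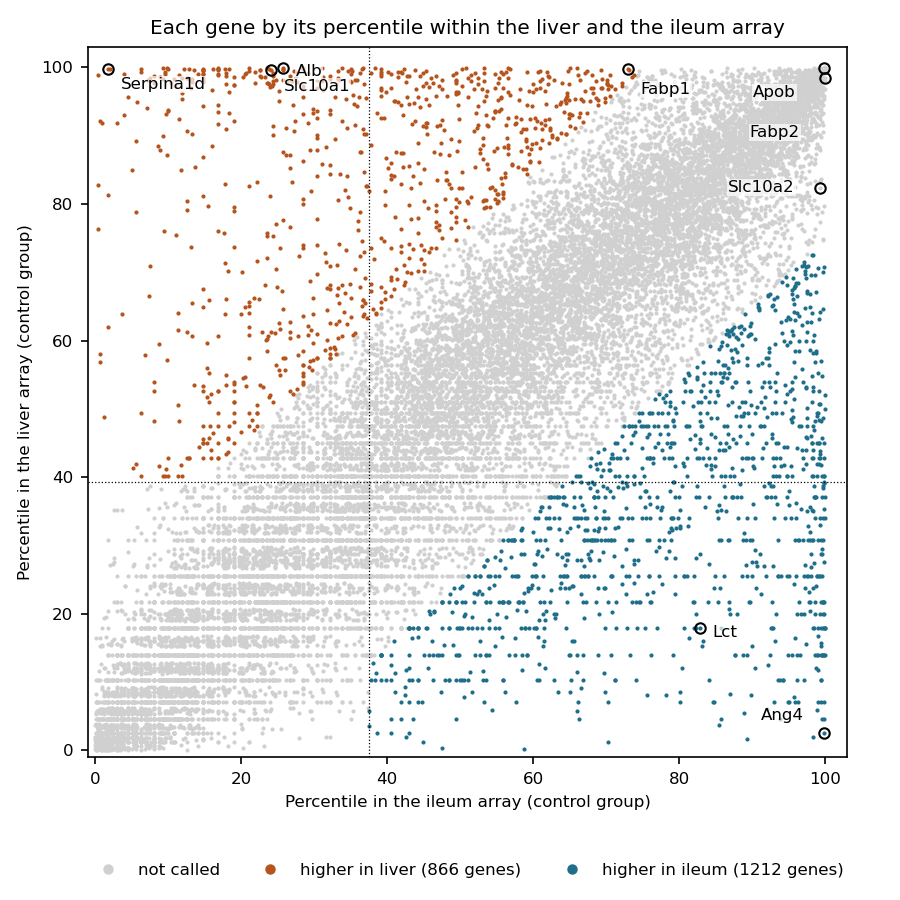
Percentile of each gene in the liver array (vertical axis) against the ileum array (horizontal axis), control group, 1 point per gene; orange points are higher in the liver (866 genes), blue points higher in the ileum (1212 genes), and dotted lines mark background. Apob and Fabp2 lie in the upper right corner with the shared genes, Alb at the upper left and Lct at the lower right, and rows of points in the lower part are genes that share 1 value.

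Promoter sequences of 5 genes, picked by hand, are shown as examples: Alb and Serpina1d from the liver, Cdhr2 and Sis from the ileum, and Apob from both. Each is the 250 bases before the start of the gene from RefSeq, build GRCm38.p6, written 5′ to 3′ on the strand of the gene. Capitals mark GTTAAT or its reverse complement ATTAAC, core letters of the sites bound by HNF1, a homeodomain factor of liver and gut. Alb lies at chr5:90460620-90460869, plus strand, and Serpina1d, an alpha-1-antitrypsin gene, at chr12:103773634-103773883, minus strand. Cdhr2, a cadherin that links microvilli, lies at chr13:54701213-54701462, plus strand, Sis at chr3:72967864-72968113, minus strand, and Apob at chr12:7977427-7977676, plus strand.
Alb: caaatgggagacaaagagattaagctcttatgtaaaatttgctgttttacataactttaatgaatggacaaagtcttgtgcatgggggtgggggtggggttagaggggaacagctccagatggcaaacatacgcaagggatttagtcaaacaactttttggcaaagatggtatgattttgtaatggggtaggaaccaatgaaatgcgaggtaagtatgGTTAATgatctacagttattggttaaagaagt
Serpina1d: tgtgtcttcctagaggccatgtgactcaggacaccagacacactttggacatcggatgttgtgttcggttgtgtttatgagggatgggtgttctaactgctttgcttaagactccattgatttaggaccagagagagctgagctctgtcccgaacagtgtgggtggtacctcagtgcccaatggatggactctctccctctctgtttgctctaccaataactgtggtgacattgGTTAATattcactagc
Cdhr2: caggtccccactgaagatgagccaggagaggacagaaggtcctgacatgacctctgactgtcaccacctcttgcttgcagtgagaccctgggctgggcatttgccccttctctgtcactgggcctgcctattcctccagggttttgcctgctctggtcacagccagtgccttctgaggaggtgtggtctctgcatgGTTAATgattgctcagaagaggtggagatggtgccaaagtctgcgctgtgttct
Sis: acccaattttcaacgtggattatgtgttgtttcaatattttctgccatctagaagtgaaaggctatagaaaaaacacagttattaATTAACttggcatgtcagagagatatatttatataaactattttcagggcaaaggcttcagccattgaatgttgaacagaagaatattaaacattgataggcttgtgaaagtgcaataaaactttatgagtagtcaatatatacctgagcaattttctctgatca
Apob: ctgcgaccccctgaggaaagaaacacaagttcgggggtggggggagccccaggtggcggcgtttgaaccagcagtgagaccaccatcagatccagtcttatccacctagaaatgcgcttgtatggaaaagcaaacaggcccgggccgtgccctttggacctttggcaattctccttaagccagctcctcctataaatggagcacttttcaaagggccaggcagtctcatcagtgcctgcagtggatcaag

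The letters begin 32 bases before the start in Alb, 16 in Serpina1d, 54 in Cdhr2 and 165 in Sis, and are absent from the window of Apob. These examples do not stand for their groups, in each of which most genes lack the letters. A match is a description of the sequence and not a binding site. Of the measured genes, 16990 have a promoter in the table, and 6.93% of them hold GTTAAT on either strand within 250 bases. The share was 12.1% (81 of 672) for genes higher in the liver, 8.0% (72 of 900) for genes higher in the ileum and 5.11% (166 of 3248) for genes high in both. The other 5 motifs were searched in the same way, with no test.

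For CAAAGTC, letters found in sites of HNF4, the share was 8.63% in the liver genes and 6.56% in the ileum genes, against 4.26% of all measured genes. TTNNGCAA, found in sites of the C/EBP factors, was in 17.6% of the liver genes, 10.1% of the ileum genes and 10.4% of all. TTTATG, found in sites of the intestinal factors CDX1 and CDX2, was in 12.9% of the liver genes, 11.4% of the ileum genes and 10.9% of all. AGATAA, for GATA factors, was in 11.9%, 10.6% and 10.2% of the same groups, and TATAAA, the TATA box, in 17.1%, 13.8% and 13.2%. Genes high in both organs had the lowest share for all 6 motifs, between 3.51% for CAAAGTC and 8.31% for TTNNGCAA. Several of these motifs can overlap within a promoter, and promoters differ in base composition, whose part in these shares was not tested.

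The 12 genes with the most percentile points toward the liver were Ugt3a2, Serpina1d, Mup20, Slco1a1, Fgg, Sult2a8, Cfhr2, Serpina7, Ugt2b36, Ces3b, Mup21 and Bbox1. They cover drug conjugation (Ugt3a2, Ugt2b36, Sult2a8), plasma and urinary proteins (Serpina1d, Serpina7, Fgg, Mup20, Mup21), uptake of organic anions (Slco1a1) and the last step of carnitine synthesis (Bbox1). Ugt3a2 was at log2 10.10 (percentile 98.9) in the liver and 1.72 (percentile 0.388) in the ileum. Mup20, a major urinary protein, was at log2 11.94 (percentile 99.8) in the liver and 1.88 (percentile 2.08) in the ileum. All 12 were below background in the ileum, where order has no meaning, so they are examples of liver genes and not a ranking. When values below background were raised to background, a choice made after seeing the data, the 12 leading genes were Alb, Mup3, Ahsg, Pzp, Ces3a, Serpina1c, Fgb, Mug1, Hpx, Apoc1, Serpina1d and Fgg, of which 2 are among the genes above. The counts of genes became 719 for the liver and 928 for the ileum. The Mup, Ugt and Serpina1 genes have close copies whose probes can read each other, so a value there may belong to the family more than to the gene.

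Toward the ileum the 12 genes with the most percentile points were Ang4, Defa41, Reg3g, Cdhr2, Lgals2, Clca4b, Hnf4g, Tmigd1, Mptx1, Tspan1, Agr2 and 2010106E10Rik. Ang4 and Defa41 encode antimicrobial peptides of Paneth cells, and Reg3g is a lectin against Gram-positive bacteria. Ang4 was at log2 11.77 (percentile 99.8) in the ileum and 1.61 (percentile 2.52) in the liver. Reg3g was at log2 12.12 (percentile 99.9) in the ileum and 1.69 (percentile 4.52) in the liver. Hnf4g, the gut relative of Hnf4a, was at log2 10.82 (percentile 99.5) in the ileum and 1.78 (percentile 6.99) in the liver. All 12 were below background in the liver, and their order likewise has no meaning. With background values raised the leading genes were Muc13, Lyz1, Reg3b, Sis, Lypd8, Reg3g, Muc3, Itln1, Mptx2, Defa24, Krt20 and Fabp6, of which 1 is among the genes above. For the lists below, the count with background values raised is given where it differs by a factor of 1.5 or more. Small counts in a list can lie near the shares over all genes. Those were 3.9% higher in the liver, 5.46% higher in the ileum and 18.3% high in both.

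The plasma proteins made by hepatocytes divided the organs most fully. All 28 measured genes of this list were higher in the liver, with a median difference of 73.2 points against 0.478 for all genes, and 20 were below background in the ileum. The fibrinogen chains Fgg, Fga and Fgb had percentiles of 99.8 against 6.21, 99.7 against 13.5 and 99.9 against 16.8, liver first. Ambp, the precursor of an inhibitor of serine proteases, was at 99.7 against 14.7, Hamp, which encodes the iron hormone hepcidin, at 99.8 against 17.8, and Serpinc1, antithrombin, at 99.7 against 18.3. The difference ranged from 26.4 to 93.6 points over the list.

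Enzymes and receptors of hepatocytes separated less fully, with 20 of 28 higher in the liver and none in the ileum. Uox, urate oxidase, was at log2 11.55 (percentile 99.7) in the liver and 2.64 (percentile 16.8) in the ileum. Tdo2, which breaks down tryptophan, was at log2 11.35 (percentile 99.7) in the liver and 2.89 (percentile 22.5) in the ileum, and Asgr1, a subunit of the asialoglycoprotein receptor, was at log2 9.53 (percentile 98.1) in the liver and 3.05 (percentile 25.7) in the ileum. These 3 enzymes or receptors were below background in the ileum.

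By contrast 7 of the 28 were at percentile 75 or more in both organs. Cps1 and Otc, the mitochondrial steps of the urea cycle, which in the gut serve citrulline synthesis, were at log2 11.65 (percentile 99.8) in the liver and 10.18 (percentile 98.9) in the ileum and at log2 10.70 (percentile 99.3) in the liver and 9.40 (percentile 97.7) in the ileum. Tat and Hpd, both of tyrosine breakdown, were at 99.8 against 94.97 and 99.9 against 86.5, and the gluconeogenic genes Pck1 and Fbp1 were at 99.7 against 80.3 and 99.6 against 77.9. Once both arrays were brought to a common distribution, Pck1 was 5.04 log2 units higher in the liver, Hpd 4.996, Fbp1 4.83 and Tat 3.32. Cps1 and Otc were 1.46 and 1.31 units higher there. High in both thus does not mean equal levels for these genes. A low percentile does not show that a gene is silent. Ass1, the urea cycle enzyme between Otc and Asl, named here after its values were seen, was at log2 3.75 (percentile 57.2) in the liver and 4.45 (percentile 48.4) in the ileum, although it is a textbook gene of the hepatocyte.

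All 30 enterocyte genes were above background in the ileum, and 23 were higher there, with a median difference of -62.8 points (liver minus ileum). Sis was at log2 12.22 (percentile 99.9) in the ileum and 1.96 (percentile 13.95) in the liver. The brush border proteases Mep1a and Mep1b were at 99.5 against 25.6 and 99.7 against 19.9, ileum first, and Krt20, a keratin of mature enterocytes, was at 99.8 against 21.7. Slc6a19, the main carrier of neutral amino acids, was at 98.02 against 25.6. All 5 were below background in the liver.

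The 7 enterocyte genes that were not called were high in the liver too. They include the peptidases Anpep, Dpp4 and Enpep, the disaccharidase Mgam, the cadherin Cdhr5 and Fabp2. Anpep was at log2 12.54 (percentile 99.96) in the ileum and 9.44 (percentile 97.99) in the liver, and Mgam was at log2 12.17 (percentile 99.9) in the ileum and 8.87 (percentile 96.9) in the liver. After both arrays were brought to a common distribution, Anpep was still 3.10 log2 units lower in the liver, Mgam 3.29 and Fabp2 2.65. Of the 4049 genes high in both, 487 were at least 1 log2 unit higher in the liver on that common distribution, 496 at least 1 unit higher in the ileum, and 3066 less than 1 unit apart.

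Secretory cells of the gut gave the second largest set of ileum genes, with 21 of 24 higher there and none higher in the liver (median difference -59.4 points). Agr2 and Zg16 of goblet cells were at 99.5 against 10.2 and 99.7 against 13.95, ileum first, Lyz1 and Ang4 of Paneth cells at 99.98 against 33.9 and 99.8 against 2.52, and Nts, the hormone neurotensin, at 92.5 against 13.95. Of the 15 crypt and division genes 9 were higher in the ileum (6 with background values raised) and none in the liver. Olfm4, a marker of crypt base stem cells, was at 99.4 against 21.7, and the division genes Top2a and Mki67 at 88.7 against 30.7 and 96.4 against 58.5. Pcna was the gene of this list at percentile 75 or more in both (88.3 against 95.7, liver first).

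Transcription factors named for the liver were shared more than those named for the gut. Of 19 liver factors 6 were higher in the liver, none in the ileum, and 10 were high in both. Onecut1 was at log2 7.16 (percentile 89.7) in the liver and 3.29 (percentile 30.4) in the ileum, and the drug-sensing receptor Nr1i3 was at log2 9.78 (percentile 98.5) in the liver and 4.27 (percentile 46.1) in the ileum. Hnf4a was at log2 10.17 (percentile 98.95) in the liver and 10.76 (percentile 99.5) in the ileum, and Nr1h4, the bile acid receptor FXR, was at log2 8.97 (percentile 97.2) in the liver and 9.44 (percentile 97.8) in the ileum. Creb3l3, Nr1i2, Nr5a2 and Mlxipl were also high in both, with the widest gap of these for Mlxipl (95.8 against 89.8, liver first). Of 18 gut factors 12 were higher in the ileum and none in the liver. Cdx2, the master homeobox factor of the intestine, was at log2 8.32 (percentile 93.6) in the ileum and 2.24 (percentile 25.6) in the liver, and Elf3 and Ehf, factors of epithelial cells, were at 97.8 against 21.7 and 92.9 against 17.8, ileum first. Isx, Gata5, Klf5 and Atoh1, the factor that sets secretory fate, were higher in the ileum as well. Foxa1 and Gata6 were high in both.

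**Figure D2:**
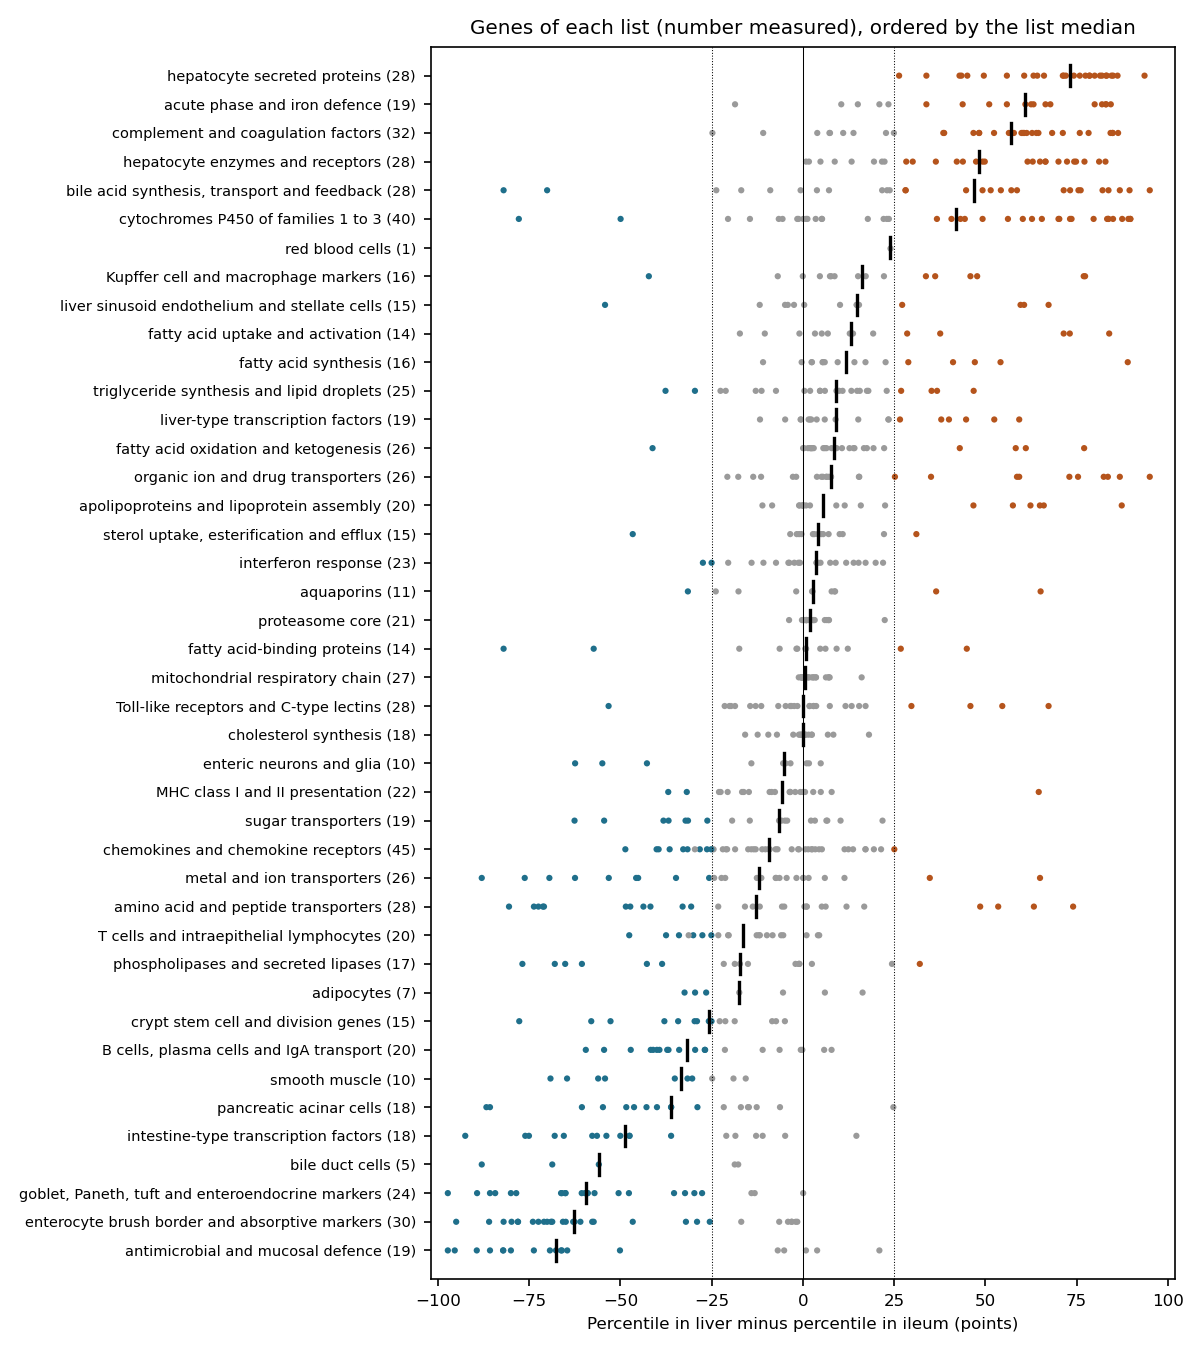
Liver minus ileum difference in percentile points (horizontal axis) for the genes of each list, 1 point per gene and the number measured in brackets, with a black bar at the list median and dotted lines at 25 points; orange genes are higher in the liver, blue in the ileum and grey in neither. Medians run from 73.2 points for hepatocyte secreted proteins to -67.7 points for antimicrobial genes, with cholesterol synthesis, the respiratory chain and the proteasome near 0.

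Genes that nearly every cell uses stayed together. Of 27 respiratory chain genes 22 were high in both, none was called, and the median difference was 0.676 points. Of 21 proteasome genes 19 were high in both and none was called, with a median of 2.01 points. Psma5, a proteasome subunit, was below background in both (23.2 against 26.95, liver first), and whether its probes, or those of Hadhb and Ass1 in the lists around it, read these genes well was not tested.

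Other cell types were part of both arrays, and their markers bear on what follows. Smooth muscle genes were higher in the ileum for 7 of 10, with Actg2 at 94.7 against 25.6 and Cnn1 at 98.6 against 33.9, ileum first. Of 18 markers of pancreatic acinar cells 11 were higher in the ileum (7 with background values raised), with Spink1 at 98.8 against 12.1, Zg16 at 99.7 against 13.95, Clps at 94.5 against 33.9 and Cpb1 at 63.3 against 8.55. Spink1 and Zg16 are also expressed by the intestinal epithelium. Above background were 15 of the 18 in the ileum and 4 in the liver, while Prss2 and Cela3b, digestive proteases of the acinar cell, were below background in both. What part acinar cells had in other values of the ileum array was not tested. Of 7 adipocyte genes Adipoq, Retn and Lep were higher in the ileum (54.1 against 21.7, 70.5 against 40.99 and 52.1 against 25.6), Retn alone with background values raised. Among 16 macrophage markers the Kupffer cell genes Vsig4, Cd5l, Folr2, Clec4f, Timd4 and Marco were higher in the liver, and Itgam was higher in the ileum. Vsig4, a complement receptor, was at 87.2 against 9.84, liver first, while C1qb, Lyz2 and Csf1r were high in both. Of 15 genes of the liver sinusoid and stellate cells Clec4g, Stab2, Oit3 and Reln were higher in the liver, 7 were high in both, and Des, also a muscle gene, was higher in the ileum (96.96 against 42.7).

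Lipid genes were shared more than transport or immune genes. Of 229 lipid genes 98 (42.8%) were high in both organs, against 18.3% of all genes. Higher in the liver were 65 (28.4%), against 3.9%, and higher in the ileum 15 (6.55%), near the 5.46% of all genes. Members were placed on these lists for their known roles in organs such as these, so the shares describe the lists.

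Apolipoprotein and assembly genes were either high in both organs or higher in the liver. Of the 20 genes measured 14 were high in both, 6 were higher in the liver and none in the ileum. Among the shared genes are Apob, Apoa1, Apoa4, Apoc2, Apoc3 and Apoe. Apoa1, the main protein of high density lipoprotein, was at log2 11.58 (percentile 99.8) in the liver and 11.17 (percentile 99.7) in the ileum. Apoa4, made by enterocytes after a fat meal, was at log2 11.12 (percentile 99.6) in the liver and 11.16 (percentile 99.7) in the ileum. The difference was 0.0947 points for Apob, 0.0812 for Apoa1 and -0.0721 for Apoa4. Apoe, Apoc2 and Apoc3 had percentiles of 98.3 against 75.8, 97.4 against 81.6 and 93.9 against 82.4, liver first, and on a common distribution they were 3.67, 2.67 and 1.52 log2 units higher in the liver.

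The assembly factors were high in both as well. Mttp, which loads lipid onto apolipoprotein B, was at log2 9.60 (percentile 98.2) in the liver and 10.35 (percentile 99.1) in the ileum, and the vesicle protein Sar1b was at log2 10.39 (percentile 99.1) in the liver and 9.67 (percentile 98.3) in the ileum. Tm6sf2 and Apobec1, the editing enzyme of the Apob transcript, were high in both with the higher percentile in the ileum (98.9 against 90.4 and 92.6 against 81.5, ileum first). Pltp, Creb3l3, P4hb and Pla2g12b complete the shared genes.

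The liver set was Apof, Apoc1, Apom, Apoa5, Lcat and Apoa2. Apoc1 was at log2 12.00 (percentile 99.9) in the liver and 3.49 (percentile 33.8) in the ileum. Apoa2, the second protein of high density lipoprotein, was at log2 12.63 (percentile 99.96) in the liver and 4.81 (percentile 53.2) in the ileum. Apoa5, which raises the clearance of triglyceride, was at log2 9.61 (percentile 98.2) in the liver and 3.60 (percentile 35.9) in the ileum, and Lcat, which esterifies plasma cholesterol, was at log2 10.74 (percentile 99.4) in the liver and 3.98 (percentile 41.8) in the ileum. Apof and Apom were at 98.9 against 11.5 and 91.1 against 26.1, liver first. Apoh, counted with the plasma proteins, was at 99.7 against 23.8.

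Fatty acid-binding proteins differed gene by gene. Fabp1, the liver form, was at log2 11.91 (percentile 99.8) in the liver and 6.25 (percentile 72.99) in the ileum, a difference of 26.8 points and so close to the limit of 25. Fabp6, the carrier of bile acids inside enterocytes, was at log2 11.83 (percentile 99.8) in the ileum and 2.05 (percentile 17.8) in the liver, and Rbp2, the retinol carrier of enterocytes, at log2 8.29 (percentile 93.4) in the ileum and 2.57 (percentile 36.1) in the liver. Fabp7 was at log2 4.84 (percentile 68.2) in the liver and 2.93 (percentile 23.3) in the ileum. Scp2 and Dbi, carriers of sterols and of acyl-CoA, were high in both along with Fabp2. On a common distribution the liver minus ileum log2 difference was 3.95 for Scp2, 0.563 for Dbi and -2.65 for Fabp2. Fabp4, a gene of adipocytes and capillaries, had percentiles of 71.7 against 89.1, liver first, and was not called. Fabp3 and Fabp5 were at 70.8 against 70.1 and 50.4 against 38.1 and Crabp2 at 51.1 against 41.8, and Fabp9, Fabp12 and Crabp1 were below background in both.

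Bile acid genes were called in both directions. Of 28 measured, 17 were higher in the liver, 2 in the ileum and 6 were high in both, with a median difference of 47.0 points. Cyp7a1, whose product catalyses the first step of bile acid synthesis, was at log2 10.31 (percentile 99.04) in the liver and 2.29 (percentile 9.52) in the ileum. Cyp8b1, which sets the share of cholic acid, was at log2 9.81 (percentile 98.6) in the liver and 3.98 (percentile 41.4) in the ileum, and Cyp7b1 of the alternative route at log2 8.86 (percentile 96.8) in the liver and 4.39 (percentile 47.6) in the ileum. Akr1d1, Baat, Slc27a5, Acox2 and Cyp2c70, later steps of synthesis and conjugation, were higher in the liver as well (97.6 against 24.4, 97.1 against 45.7, 99.2 against 27.7, 96.3 against 68.2 and 98.5 against 14.7, liver first). Cyp27a1 and Hsd3b7 were high in both (98.7 against 75.6 and 97.6 against 75.9), and Amacr, at 97.8 against 74.02, was not called. On a common distribution Cyp27a1, Hsd3b7 and Amacr were 3.90, 3.25 and 3.53 log2 units higher in the liver.

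The uptake carriers of both organs are relatives, and the liver one was called. Slc10a1, the sodium-dependent carrier of the hepatocyte, was at log2 11.22 (percentile 99.6) in the liver and 2.98 (percentile 24.1) in the ileum, below background in the ileum. Slc10a2, its relative in the ileal brush border, was at log2 10.56 (percentile 99.3) in the ileum and 6.26 (percentile 82.4) in the liver. Slc10a2 was above background in the liver and high in both by percentile, 3.97 log2 units lower in the liver once both arrays were brought to a common distribution. On the export side Abcb11, the bile salt pump, was at log2 10.16 (percentile 98.9) in the liver and 2.64 (percentile 16.8) in the ileum, and Slc51a, a subunit of the basolateral exporter of enterocytes, was at log2 10.83 (percentile 99.5) in the ileum and 2.36 (percentile 29.4) in the liver. Slco1a1, Slco1b2 and Slco1a4, which take up organic anions, and Abcb4, which moves phospholipid into bile, were higher in the liver, Abcc2 and Abcc3 were high in both, and Abcc4 was not called.

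Genes of bile acid feedback lay on both sides. Nr1h4 was shared, and its liver target Nr0b2 was at log2 7.04 (percentile 88.9) in the liver and 4.14 (percentile 44.2) in the ileum. Fgf15, the ileal hormone that restrains bile acid synthesis, was at log2 5.90 (percentile 67.8) in the ileum and 2.86 (percentile 44.1) in the liver, 23.7 points higher in the ileum and so short of a call. Its receptor pair Fgfr4 and Klb was higher in the liver (83.8 against 55.6 and 90.9 against 36.7, liver first).

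**Figure D3:**
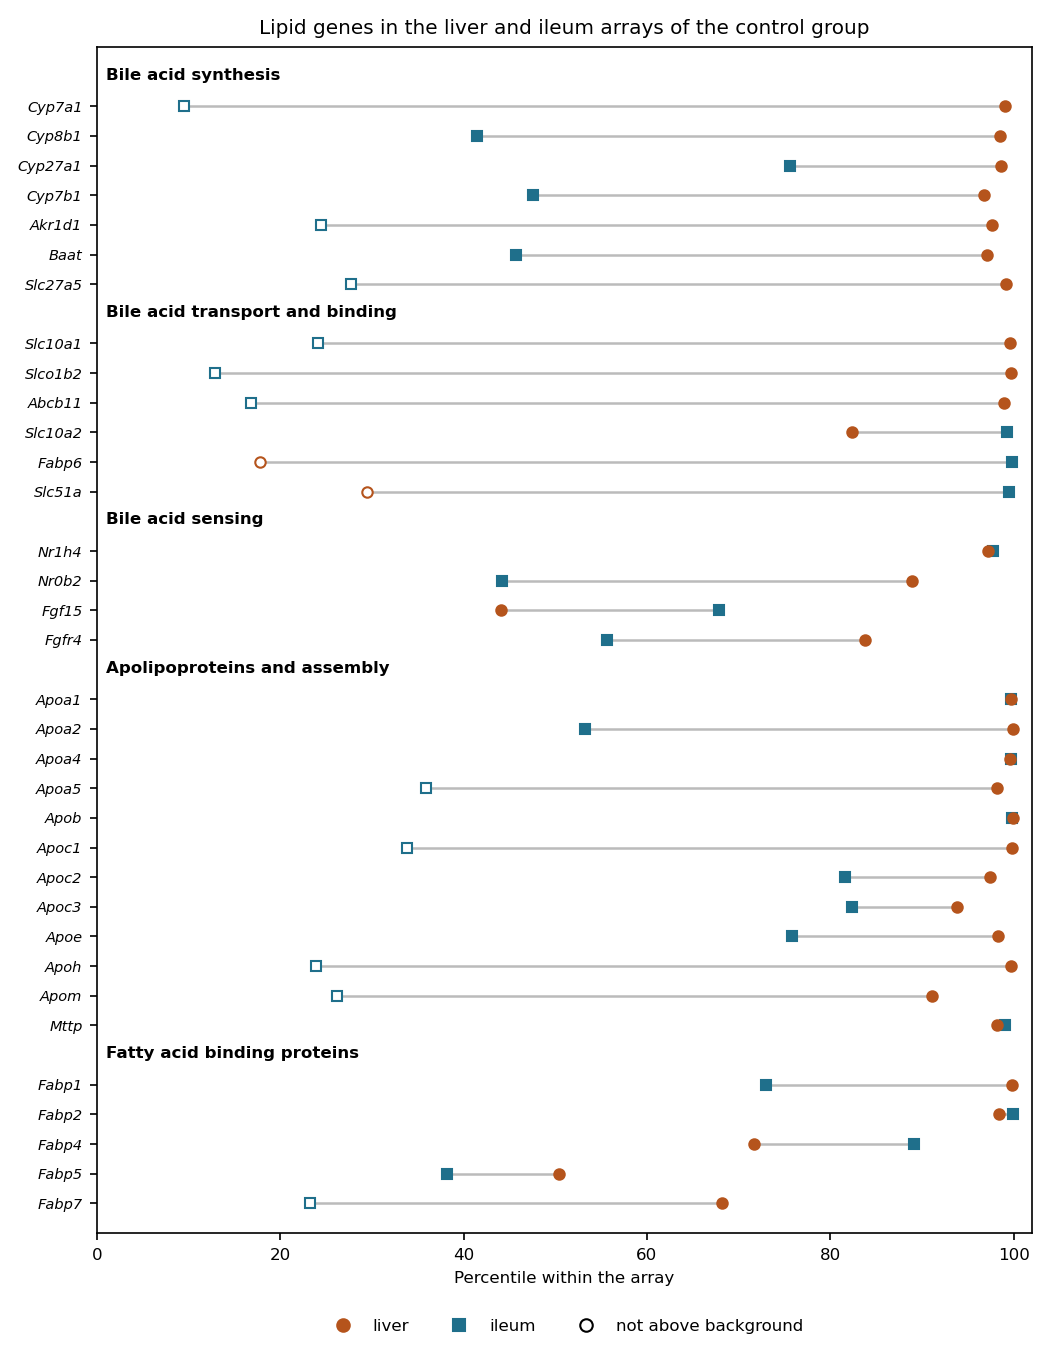
Percentile (horizontal axis) of lipid genes in the liver array (orange circles) and the ileum array (blue squares) of the control group; open symbols are not above background and a grey line joins both values of a gene. Slc10a1 (99.6 in the liver, 24.1 in the ileum) and Fabp6 (17.8 in the liver, 99.8 in the ileum) have long lines in opposite directions, and Apob, Apoa1 and Apoa4 have both symbols at the right edge.

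By percentile, cholesterol synthesis was the most even lipid list. Of 18 genes 17 were high in both, none was called, and the median difference was 0.0518 points. Hmgcs1, the entry enzyme, was at log2 9.61 (percentile 98.2) in the liver and 10.29 (percentile 99.05) in the ileum, and Fdft1, squalene synthase, was at log2 8.93 (percentile 97.1) in the liver and 9.26 (percentile 97.4) in the ileum. Sc5d, Nsdhl, Cyp51 and Msmo1, later steps of the pathway, were at 99.1 against 96.7, 95.7 against 94.9, 92.1 against 93.2 and 93.1 against 92.6, liver first. Over the list the difference ran from -15.8 points for Lbr to 18.1 points for Tm7sf2. On a common distribution the liver minus ileum log2 difference was -1.93 for Lbr, 2.16 for Tm7sf2 and 1.41 for Sc5d.

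Of 15 genes of sterol traffic 9 were high in both, 1 was higher in each organ and 4 were neither. A single gene is 6.67% of this list, near the shares over all genes (3.9% for the liver, 5.46% for the ileum). Npc1l1, through which enterocytes take up cholesterol, was at log2 10.45 (percentile 99.2) in the ileum and 3.35 (percentile 52.6) in the liver. Scarb1, the receptor for high density lipoprotein, was at log2 8.24 (percentile 94.9) in the liver and 5.61 (percentile 63.8) in the ileum. The sterol exporters Abcg5 and Abcg8 were at 96.1 against 97.8 and 97.5 against 97.8, liver first, and Lipa, Insig1, Lrp1 and Npc2 were also high in both. Npc1, which exports cholesterol from lysosomes, and Abcg1 were neither called nor high in both (77.7 against 55.5 and 68.6 against 61.6, liver first).

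Genes of fatty acid synthesis were mostly high in both organs, and the calls among them were for the liver. Of 16 genes 10 were high in both, 5 were higher in the liver and none in the ileum. Acly and Fasn, which make acetyl-CoA and palmitate, were at 97.3 against 94.9 and 97.5 against 92.2, liver first. Scd1, the desaturase of stearate, was at log2 11.98 (percentile 99.9) in the liver and 7.82 (percentile 90.3) in the ileum, 4.40 log2 units higher in the liver on a common distribution though only 9.54 percentile points apart. Elovl3 and Elovl2, elongases of long fatty acids, were at log2 9.69 (percentile 98.4) in the liver and 2.28 (percentile 9.33) in the ileum and at log2 10.89 (percentile 99.5) in the liver and 4.22 (percentile 45.3) in the ileum. Thrsp, Acacb and Me1 were the other genes higher in the liver, and Elovl6, Fads2 and Elovl5 were high in both. On a common distribution Elovl5, Fads2, Fasn and Acly were 2.73, 2.21, 1.42 and 0.748 log2 units higher in the liver. For Elovl6 and Elovl1, also high in both, the liver minus ileum difference was -0.0992 and -1.91.

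Oxidation of fatty acids was shared as well, with 17 of 26 genes high in both. Hadh, Hadha, Acadm and Cpt1a were at 99.6 against 99.6, 99.5 against 99.2, 99.7 against 98.3 and 99.4 against 97.3, liver first. Hadhb, the partner subunit of Hadha, was at 46.4 against 27.01, below background in the ileum. Higher in the liver were Cyp4a14 (99.6 against 22.6), Acot1 (83.3 against 22.2), Cyp4a12a (92.2 against 33.8) and Acaa1b (99.3 against 56.3), genes of omega oxidation, acyl-CoA hydrolysis and the peroxisome. Oxct1, which lets a tissue burn ketone bodies and which hepatocytes lack, was at log2 8.80 (percentile 95.8) in the ileum and 3.50 (percentile 54.7) in the liver.

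For triglyceride storage 13 of 25 genes were high in both. Dgat2 and Agpat2 were at 99.4 against 94.7 and 98.5 against 98.1, and the droplet coat protein Plin2 at 99.1 against 89.1, liver first. On a common distribution Plin2 was 2.95 log2 units higher in the liver, Dgat2 2.31 and Agpat2 0.274. Plin5, G0s2, Cidea and Mgll were higher in the liver. Cidea, a droplet protein known from brown fat, was at log2 4.78 (percentile 67.5) in the liver and 3.39 (percentile 32.2) in the ileum. Mogat2, the enterocyte enzyme that rebuilds triglyceride from absorbed monoglyceride, was at log2 8.01 (percentile 91.6) in the ileum and 3.45 (percentile 53.999) in the liver, and Lpin3 was at log2 7.53 (percentile 87.95) in the ileum and 3.84 (percentile 58.4) in the liver. Among genes of uptake and activation Acsm1, Acsm5, Slc27a5, Slc27a2 and Acsl4 were higher in the liver, and Acsl5, Cd36, Got2 and Slc27a4 were high in both.

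Of 17 phospholipases and secreted lipases 6 were higher in the ileum and 1, Lipg, higher in the liver (91.04 against 58.99). Plb1, a brush border phospholipase, was at log2 9.06 (percentile 96.7) in the ileum and 2.10 (percentile 19.9) in the liver, and Pla2g2a, an antibacterial phospholipase of Paneth cells, was at log2 8.31 (percentile 93.5) in the ileum and 2.24 (percentile 25.6) in the liver. Clps and Pnliprp2, also on the acinar and Paneth lists, were at 94.5 against 33.9 and 95.9 against 30.7, ileum first. The part of acinar cells in these values was not tested. In the PM group the ileum percentile of Clps was 93.9, while that of Cpb1 was 4.08 against 63.3 in the control group.

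The cytochromes P450 of families 1 to 3, which handle drugs, steroids and fatty acids, were higher in the liver for 22 of 40. Cyp2c37 was at log2 9.82 (percentile 98.6) in the liver and 2.25 (percentile 8.84) in the ileum, and Cyp2j5 and Cyp2a12 were at 99.7 against 9.99 and 99.8 against 16.1, liver first. Cyp2c65 and Cyp2s1 were the 2 genes higher in the ileum, and Cyp2c65 was at log2 7.22 (percentile 84.8) in the ileum and 1.78 (percentile 6.99) in the liver. Members of the Cyp2c group are close in sequence, so a probe may read more than 1 of them.

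Transport genes were divided by substrate. Of 110 genes on the transport lists 34 (30.9%) were high in both, 28 (25.5%) were higher in the ileum and 18 (16.4%) in the liver. Over all 375 solute carrier genes of the array, including those on no list, 37 (9.87%) were higher in the liver and 49 (13.1%) in the ileum. High in both were 88 (23.5%), and the median difference was -0.104 points. The shares over all genes were 3.9% for the liver, 5.46% for the ileum and 18.3% for both.

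Sugar carriers were never called for the liver. Of 19 genes 7 were higher in the ileum and 5 were high in both. Slc5a1, the sodium-glucose carrier of the brush border, was at log2 11.03 (percentile 99.6) in the ileum and 2.59 (percentile 37.05) in the liver, and its relatives Slc5a9, Slc5a11, Slc5a4a and Slc5a4b were also higher in the ileum. Slc2a2, the basolateral glucose carrier GLUT2, was at log2 11.02 (percentile 99.5) in the liver and 8.91 (percentile 96.2) in the ileum, and Slc37a4, the glucose 6-phosphate carrier, was at log2 9.49 (percentile 98.1) in the liver and 7.51 (percentile 87.7) in the ileum. Slc2a5, the fructose carrier, was at 94.4 against 75.01, ileum first, and high in both.

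Amino acid carriers were called in both directions, 11 for the ileum and 4 for the liver of 28 genes. Slc7a9, the light chain of the cystine carrier, was at log2 9.74 (percentile 98.3) in the ileum and 2.05 (percentile 17.8) in the liver, while its partner Slc3a1 was high in both (99.6 against 94.5, ileum first). Slc6a14, Slc6a19, Slc1a1 and the peptide carrier Slc15a1 were at 99.3 against 25.6, 98.02 against 25.6, 98.04 against 26.8 and 99.6 against 28.7. Toward the liver Slc38a4 was at log2 11.74 (percentile 99.8) in the liver and 3.05 (percentile 25.7) in the ileum, and Slc38a3, which moves glutamine, at log2 11.91 (percentile 99.8) in the liver and 3.64 (percentile 36.5) in the ileum. Slc1a2 and Slc7a2, a glutamate and a cationic amino acid carrier, were the other genes higher in the liver. Slc25a15 and Slc25a13, mitochondrial carriers of the urea cycle, were high in both.

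Organic ion and drug carriers ran the other way, with 10 of 26 higher in the liver and none in the ileum. Slc22a28 and Slc22a30 were at 93.2 against 9.63 and 82.8 against 0.388, liver first, and Slc17a2 and Slc22a7 at 98.6 against 23.2 and 92.1 against 19.1. The export pumps Abcc2, Abcg2 and Abcc3 were high in both (99.4 against 95.5, 93.8 against 96.5 and 98.4 against 91.3).

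Ion and metal carriers were higher in the ileum for 9 of 26 and in the liver for 2, with 11 high in both. Cftr, the chloride channel, was at log2 8.59 (percentile 94.98) in the ileum and 1.78 (percentile 6.99) in the liver, the chloride-bicarbonate exchanger Slc26a3 was at log2 9.52 (percentile 97.9) in the ileum and 2.14 (percentile 21.7) in the liver, and the sodium-proton exchangers Slc9a2 and Slc9a3 were at 95.02 against 25.6 and 91.1 against 28.7, ileum first. For iron, Heph, the ferroxidase of enterocytes, was at 98.2 against 44.998, ileum first, and Tfr2, the iron sensor of hepatocytes, at 98.3 against 33.3, liver first. Slc40a1, the iron exporter ferroportin, was high in both (95.8 against 94.2, liver first). Among 11 aquaporins Aqp9 and Aqp8 were higher in the liver (98.4 against 33.3 and 89.7 against 53.2), Aqp7 was higher in the ileum (82.6 against 51.1, ileum first), and Aqp1 and Aqp11 were high in both.

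Immune genes were divided between fluid-phase defence in the liver and cells and peptides of the mucosa in the ileum. Of 226 immune genes 43 (19.0%) were higher in the liver, 47 (20.8%) in the ileum and 35 (15.5%) high in both. The shares over all genes were 3.9%, 5.46% and 18.3%, so the immune lists held no surplus of genes high in both.

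Complement and coagulation gave 23 of 32 genes to the liver and none to the ileum, with a median difference of 57.1 points. Hc, complement component 5, was at log2 11.08 (percentile 99.6) in the liver and 2.54 (percentile 14.7) in the ileum, C9 was at log2 10.23 (percentile 98.99) in the liver and 2.52 (percentile 14.1) in the ileum, and the clotting factors F9, F5 and F13b were at 99.03 against 14.7, 99.4 against 21.1 and 97.4 against 10.98, liver first. Cfb, C2, Serping1, Cd59a and Pros1 were high in both. Cfb, the serine protease of the alternative pathway, was at log2 10.64 (percentile 99.3) in the liver and 8.69 (percentile 95.4) in the ileum. Acute phase genes were higher in the liver for 14 of 19, with Crp at log2 10.36 (percentile 99.1) in the liver and 2.54 (percentile 14.7) in the ileum, Saa4 at log2 11.89 (percentile 99.8) in the liver and 2.64 (percentile 16.8) in the ileum and Hamp2 at 80.4 against 12.6, and Serpina3n was the gene of that list that was high in both.

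Antimicrobial genes gave the opposite picture, with 14 of 19 higher in the ileum, none in the liver, and a median difference of -67.7 points. Reg3b was at log2 12.56 (percentile 99.98) in the ileum and 2.05 (percentile 17.8) in the liver, and Lypd8, which keeps flagellated bacteria from the epithelium, was at log2 12.14 (percentile 99.9) in the ileum and 2.05 (percentile 17.8) in the liver. Itln1, a lectin for microbial sugars, was at log2 12.01 (percentile 99.9) in the ileum and 2.10 (percentile 19.9) in the liver. In the liver 15 of the 19 were below background. By gene name, all 10 alpha-defensins and all 17 immunoglobulin variable genes measured were higher in the ileum, and both groups hold near-identical copies that probes may not separate.

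Lymphocyte genes lay with the ileum. Of 20 genes of B cells, plasma cells and immunoglobulin A transport 13 were higher there, Jchain at log2 11.02 (percentile 99.6) in the ileum and 2.70 (percentile 40.1) in the liver and Ms4a1, which encodes CD20, at log2 6.23 (percentile 72.7) in the ileum and 2.24 (percentile 25.6) in the liver. Pigr, the receptor that carries immunoglobulin A across epithelium and, in the mouse, into bile, was at log2 11.62 (percentile 99.8) in the liver and 12.20 (percentile 99.9) in the ileum. Xbp1, a factor of secretory cells, was also high in both (97.5 against 98.1, liver first). Of 20 T cell genes 6 were higher in the ileum (3 with background values raised), none in the liver and none was high in both. Gzma, a granzyme, was at log2 5.84 (percentile 66.96) in the ileum and 2.07 (percentile 19.4) in the liver, and Cd3g was at log2 6.21 (percentile 72.3) in the ileum and 2.62 (percentile 38.4) in the liver.

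Of 22 genes of antigen presentation 10 (45.5%) were high in both, against 18.3% of all genes, and the median difference was -5.64 points. Higher in the liver was 1 (4.55%), against 3.9% of all genes. Higher in the ileum were 2 (9.09%), or 1 with background values raised, against 5.46% of all genes. B2m, the light chain of class I, was at log2 12.37 (percentile 99.9) in the liver and 12.06 (percentile 99.9) in the ileum, and H2-K1 was at log2 10.52 (percentile 99.2) in the liver and 9.94 (percentile 98.6) in the ileum. The class II gene H2-Ab1 was high in both and higher in percentile in the ileum (99.7 against 90.5, ileum first), and H2-DMb1 and H2-DMb2, which load class II, were higher in the ileum. H2-Aa, H2-Ob, H2-DMa and H2-Eb1, further class II genes, had percentiles of 97.8 against 74.8, 67.5 against 44.998, 82.95 against 62.3 and 97.5 against 81.3, ileum first, and were not called. On a common distribution their liver minus ileum log2 differences were -3.43, -1.78, -1.83 and -2.73, and that of H2-Ab1 was -3.64. Cd1d1, which presents lipid antigens to natural killer T cells, was the gene of this list higher in the liver, at log2 7.78 (percentile 93.1) in the liver and 3.19 (percentile 28.5) in the ileum.

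Chemokines and their receptors were called for the ileum in 9 of 45 genes and for the liver in 1, Cxcl1, which stood at 57.99 against 32.9, just past the limit of 25 points. With background values raised these counts were 6 and 0, and Ccr9 was among the genes no longer called. Ccl28, which draws plasma cells that make immunoglobulin A, was at log2 8.03 (percentile 91.8) in the ileum and 3.29 (percentile 51.7) in the liver, and Ccr9, the gut-homing receptor, was at log2 4.82 (percentile 53.5) in the ileum and 1.96 (percentile 13.95) in the liver. Cx3cl1 was at log2 7.97 (percentile 91.4) in the ileum and 2.81 (percentile 42.7) in the liver. Ccl9, Cxcl12, Cxcl16 and Cxcl9 were high in both. Of 23 interferon response genes 2 (8.7%) were higher in the ileum (Irf8 and Oasl2), against 5.46% of all genes, none in the liver against 3.9%, and 8 were high in both, among them Ifih1, Irf7 and Stat2. Of 28 Toll-like receptor and C-type lectin genes Clec4g, Clec1b, Clec4f and Tlr5 (14.3%) were higher in the liver, against 3.9% of all genes. Tlr1 alone (3.57%) was higher in the ileum, against 5.46% of all genes. Tlr5, the receptor for flagellin, was at log2 7.39 (percentile 90.98) in the liver and 5.40 (percentile 61.2) in the ileum, and Tlr1 was at log2 6.61 (percentile 77.6) in the ileum and 2.23 (percentile 24.3) in the liver.

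**Figure D4:**
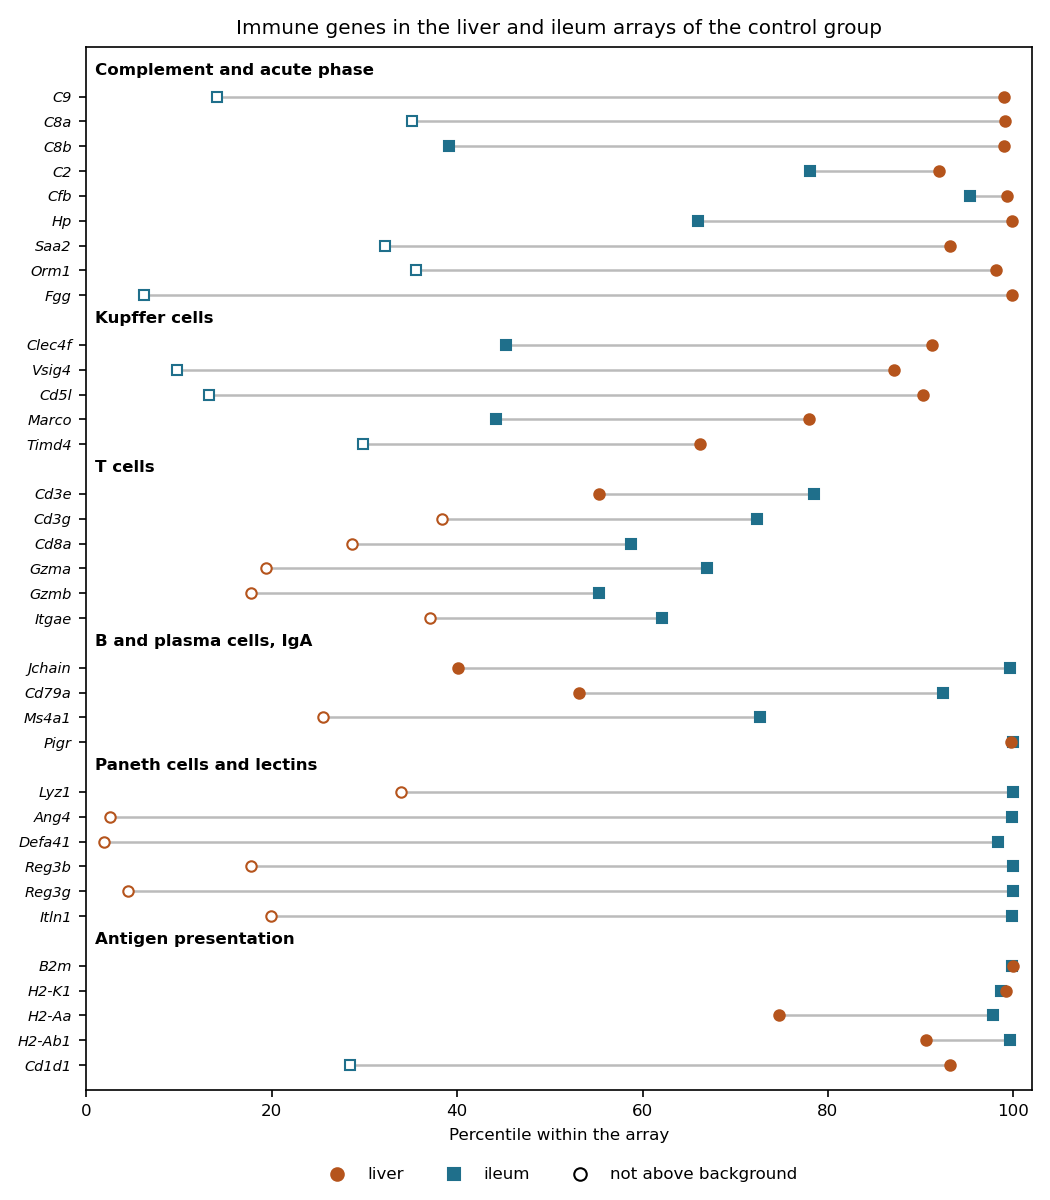
Percentile (horizontal axis) of immune genes in the liver array (orange circles) and the ileum array (blue squares) of the control group; open symbols are not above background and a grey line joins both values of a gene. Complement and Kupffer cell genes have the liver symbol on the right, lymphocyte and Paneth cell genes the ileum symbol, and Pigr and B2m have both symbols at the right edge.

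Of 483 miRNA genes 13 (2.69%) were called for the ileum and 3 (0.621%) for the liver, against 5.46% and 3.9% of all genes. With background values raised, 3 and 1 were called. Mature sequences from RefSeq (GRCm38.p6) are given for 4 miRNA genes higher in the ileum, chosen after their values were seen, with the seed (bases 2 to 8) in capitals. The mature sequences lie at chr19:6264857-6264877, plus strand (Mir192), chr1:185313610-185313630, plus strand (Mir215), chr4:156054911-156054932, minus strand (Mir200a) and chr11:96265187-96265208, plus strand (Mir196a-1).
miR-192-5p: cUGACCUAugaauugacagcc
miR-215-5p: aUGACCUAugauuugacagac
miR-200a-3p: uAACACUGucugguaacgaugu
miR-196a-5p: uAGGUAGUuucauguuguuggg

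miR-192-5p and miR-215-5p share the seed UGACCUA. Mir192 was at log2 5.84 (percentile 66.98) in the ileum and 2.51 (percentile 35.2) in the liver, and Mir215 was at log2 4.52 (percentile 49.4) in the ileum and 1.96 (percentile 13.95) in the liver. Mir200a, of an epithelial family that restrains the factors ZEB1 and ZEB2, was at log2 4.14 (percentile 44.2) in the ileum and 1.78 (percentile 6.99) in the liver, and Mir196a-1, from a Hox cluster, was at log2 6.25 (percentile 72.9) in the ileum and 2.05 (percentile 17.8) in the liver. Mir215 and Mir200a were not called once background values were raised. No source used here says whether these probes read the hairpin, a longer precursor or the mature form.

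The PM arrays of both organs gave 867 genes higher in the liver and 1206 in the ileum, of which 839 and 1166 were also called in the control group, and no gene was called in opposite directions. These arrays are no independent check, since the gene values of control group and PM group were exactly identical for 71.2% of genes in the liver and 69.7% in the ileum. Several ileum values nevertheless rest on the control pool. Lct was at percentile 82.8 in the ileum of the control group and 45.02 in that of the PM group. Fabp1 was at 72.99 and 49.7, Mptx1 at 96.3 and 42.04, Retnlb at 97.01 and 51.4, and Aqp8 at 53.2 and 25.5 in the same order. In the liver Aqp8 was at 89.7 and 89.3, and the other 4 genes moved less than that.

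**Figure D5:**
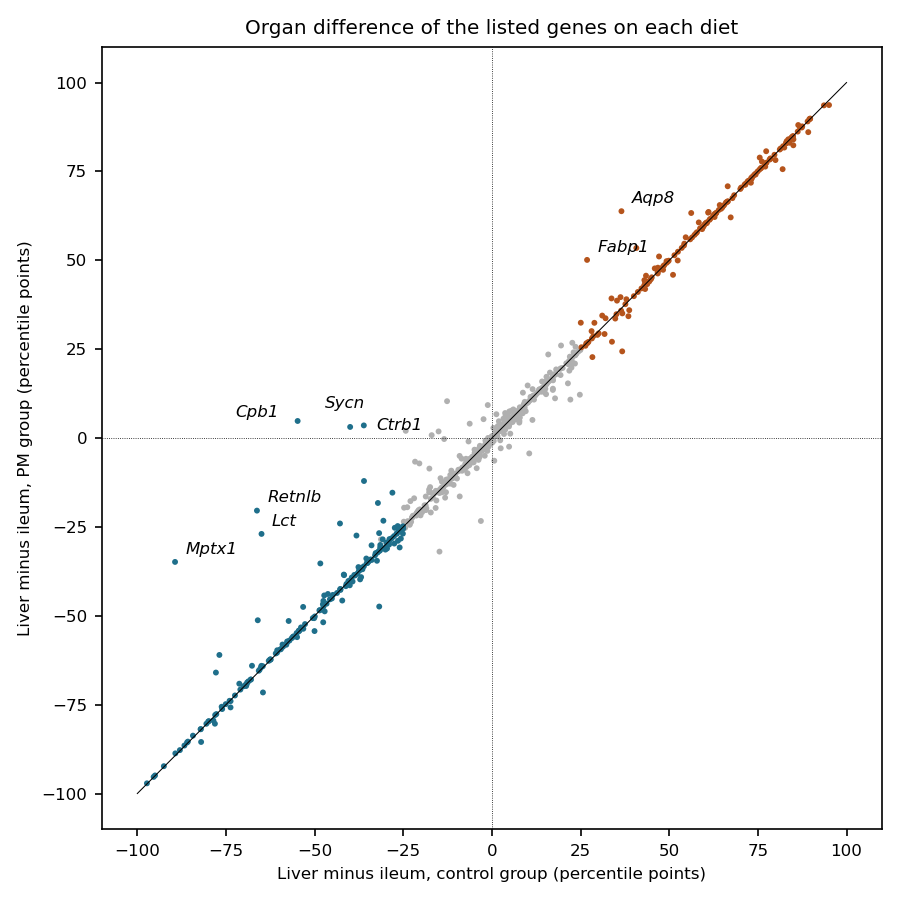
Liver minus ileum difference in percentile points in the PM group (vertical axis) against the control group (horizontal axis) for the genes of the lists and the called miRNA genes, 1 point per gene; orange genes are higher in the liver, blue in the ileum and grey in neither by the control arrays, and the line marks equal differences. Most points lie on the line, and Cpb1, Sycn, Ctrb1, Lct, Retnlb and Mptx1 lie well above it.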

How the data were processed

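The authors hybridized pooled total RNA (10 mice per pool, 1 pool per organ and diet) to 1 Affymetrix mouse gene array each. They deposited log2 expression values made by robust multichip analysis in Affymetrix Expression Console 1.3, as the submitters' processing notes record. This method subtracts background, brings arrays to 1 distribution and summarizes probe sets. No source used here says which arrays shared a normalization, so organs were compared by percentile. Summarizing arrays together can also pull their values together, and many values are identical on both diets. All columns of the table were used. The number of arrays limits the precision, and no test was made.

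Of 41345 probes, 23521 carry 1 gene symbol in the platform annotation (22180 genes), 1820 several and 16004 none. Entrez IDs of 23328 probes were found among RefSeq genes of GRCm38.p6, which changed 0 symbols. A gene value is the mean log2 of its probes, and a percentile is its average rank divided by the number of genes. A call needs 25 points and a level above the 95th percentile of receptor genes, and high in both means percentile 75 or more in both arrays. On simulated arrays of 22180 genes, 100 of 100 genes raised in the liver and 100 of 100 raised in the ileum were called, with 0 calls among 21980 others. Both simulated arrays came from 1 ileum profile with small noise, and the raised genes were moved by more than 25 points. The simulation therefore checks the code and gives no rate of false calls between real organs.

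Named genes are the 4 label markers, the 12 largest differences in each direction, up to 8 members per list with the largest difference and up to 6 that were high in both, and whole families (apolipoproteins, fatty acid-binding proteins, bile acid genes). Exceptions are marked, were the few members behind a small count, or were named after their values were seen (Ass1, Hadhb, Psma5, Npc1, Abcg1, Cela1, class II genes and the leading genes with background values raised). Members and all 42 lists were chosen with earlier results of these data known. Alternatives were the highest probe of a gene, other sets of genes as the base of the percentile, the PM arrays, limits of 15 and 40 points, a percentile of 90, and log2 differences after quantile normalization or median centring. A requirement for background in both arrays, and raising values below background to the background percentile, were added after seeing the data. Promoters and miRNAs came from RefSeq (GRCm38.p6). Python 3.11.15, numpy 2.4.6, pandas 2.3.3 and matplotlib 3.10.9 were used. RT-PCR, serum and liver lipid data were not analysed here.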

Additional observations from a re-analysis of the deposited data

Results flagged for a closer look

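Among the listed genes called in either diet pair, the difference between the organs changed sign in 3, all of pancreatic acinar cells. Listed genes with no call in either pair could change sign too, Cela1 from -12.7 to 10.4 points for example. For Cpb1, carboxypeptidase B, liver minus ileum was -54.8 points in the control group and 4.8 points in the PM group. Sycn, which encodes syncollin, went from -40 to 3.12 points, and Ctrb1, a chymotrypsinogen, from -36.1 to 3.55 points. Background in the PM group was at percentile 41.1 in the liver and 37.4 in the ileum. Cpb1 and Sycn (37.3 in the liver, 34.2 in the ileum) were below it in both organs, where order has no meaning. Their values thus show a lower ileum level in the PM group and no lead of the liver. Ctrb1 was above background in both organs of the PM group (50.6 in the liver, 47.1 in the ileum). The ileum percentile of Cpb1 was 63.3 in the control group and 4.08 in the PM group, and its liver percentile was 8.56 and 8.88. Each value rests on 1 array, and the difference between the diets was not tested. Of the 18 acinar genes measured, 11 were called for the ileum in the control group and 6 in the PM group.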

How the results depend on the processing

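Genes higher in the liver numbered 866 and genes higher in the ileum 1212. A limit of 15 points gave 1958 and 2229, and one of 40 points 431 and 585. With percentiles taken only over genes above background in at least 1 array, 1365 genes were higher in the liver and 2476 rather than 4049 were high in both, and a percentile of 90 left 1217. A log2 difference of at least 1 gave 2518 and 2702 after quantile normalization, and 4338 and 1900 after median centring, which moved the median of all genes by 0.65 log2 toward the liver. With median centring most calls were therefore for the liver, against a minority by percentile. Background required in both arrays, chosen after seeing the data, left 396 and 459. Raising values below background to background, also chosen afterwards, gave 719 and 928, and 330 of 372 named or listed genes kept their call. The other alternatives (highest probe, all probes as the base, no receptor genes, PM arrays) moved each of the 3 counts by less than 1.5 times. Of the same 372 genes 359 kept it in the PM arrays, 365 with the highest probe and 339 with all probes as the base. Of these genes Cpb1 (4.80 points), Ctrb1 (3.55) and Sycn (3.12) changed sign in the PM arrays. There Cpb1 and Sycn were below background in both organs, so their sign has no meaning. The cause was not tested. No paired analysis was possible because each group is 1 array. Pooled RNA hides the spread between mice, and genes below background in both arrays have no order.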

Other observations

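Probes that name no single gene are given beside the shares of named genes, 3.9% higher in the liver and 5.46% in the ileum. Of 16004 probes without a gene symbol, 355 (2.22%) were at least 25 points higher in the liver and above background there, and 766 (4.79%) in the ileum, on the percentile scale of the named genes. Of 1820 probes with several symbols 47 (2.58%) were higher in the liver and 70 (3.85%) in the ileum.

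Gene families were also read by name, beside shares over all genes of 3.9% for the liver and 5.46% for the ileum. Cytochromes P450 were called for the liver in 40 of 94 genes (42.6%) and for the ileum in 4 (4.26%). UDP-glucuronosyltransferases were called for the liver in 8 of 11 (72.7%) and for the ileum in 0. ABC transporters were called for the liver in 8 of 48 (16.7%) and for the ileum in 1 (2.08%). Ribosomal proteins were called in 0 of 63 genes in either direction, and 23 of them (36.5%) were high in both, against 18.3% of all genes. Of 30 claudins, which seal epithelial junctions, 2 (6.67%) were higher in the liver and 4 (13.3%) in the ileum.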
